A study of Arabidopsis with 12 samples.

Results

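The genes described here belong to the low-oxygen response of Arabidopsis and were measured in seedlings of 2 genotypes on 2 media. The set was named gene by gene, for genes with a probe set of their own: AT3G10040 (HRA1), AT3G27220, AT4G27450, PDC2, AT3G10020, AT4G24110, AT4G33560, AT5G10040, AT4G10270 and AT1G33055. The probe annotation used here named a probe set of its own for 8 of the 10, out of 16548 genes that had one. Only such genes are called measured below. The annotation left 20927 of 38408 probe sets without a name, so a gene that was not measured may still have a probe set on the arrays. AT4G10270 shares both of its probe sets with AT4G10280, and AT1G33055 shares its only one with AT1G33050, so neither is counted among the 8. The genotypes were tori 35-7, which the labels do not describe further, and Col-0, the standard laboratory accession; the title of the series refers to TOR, a kinase that adjusts growth to nutrients and energy. Seedlings of both genotypes grew for 5 days at 22 °C and then spent 72 h on water-deficit medium, made with 2% agar, or on control medium, made with 0.8% agar. The 4 groups, tori 35-7 under water deficit, tori 35-7 control, Col-0 under water deficit and Col-0 control, had 3 arrays each, from whole seedlings aged 8 days. Oxygen supply was not measured.

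Plants sense oxygen through the stability of a small family of transcription factors, the group VII ethylene response factors. With oxygen present, plant cysteine oxidases mark these factors for degradation; when oxygen is scarce the factors persist and switch on genes of fermentation and a core set of little-known genes. HRA1 is a trihelix transcription factor that is itself switched on by one of these factors, RAP2.12, and then restrains it. PDC2 encodes a pyruvate decarboxylase, the enzyme that opens the route to ethanol. AT3G27220 encodes a protein with kelch repeats, AT4G27450 a protein of the aluminium-induced family with YGL and LRDR motifs, and AT4G33560 a protein of the wound-responsive family, while AT3G10020, AT4G24110 and AT5G10040 are little characterised.

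The genes were chosen by name with results of these arrays known. AT3G10040 and AT3G27220 were selected on their difference between the genotypes on control medium and on their lower level under water deficit in tori 35-7, and AT3G10040 also on the interaction of genotype and medium. Values of the 8 genes in these 3 comparisons are therefore given as a description without a test. The other 2 comparisons, water deficit in Col-0 and the genotypes under water deficit, were tested, although they share arrays with the first 3. Levels are log2 values of 1 probe set per gene, and differences are log2 differences with the standard error (SE) of a model fitted to all 12 arrays. In whole seedlings, a change in the share of a cell type and a change in RNA per cell cannot be told apart.

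The 12 arrays had medians between 3.06 and 3.19. Col-0 water deficit replicate 1 stood apart, with a median correlation of 0.950 to the others and an interquartile range of 2.56. Next in narrowness was tori 35-7 control replicate 1, with 2.68, against 2.91 to 3.08 on the other 10 arrays. Of the markers of plant parts listed, 4 of 13 for shoots and guard cells and 2 of 14 for roots were measured. The summed log2 level of the 4 shoot markers was 29.3 to 29.5 under water deficit and 27.0 to 27.3 on control medium in tori 35-7, and 28.4 to 29.1 and 27.1 to 27.7 in Col-0. The 4 did not move one way: between the genotypes on control medium FMA, a guard cell transcription factor, differed by -0.78 ± 0.18 and RCA, the activase of Rubisco, by -0.29 ± 0.12. The antenna proteins LHCB4.1 and LHCB4.2 differed by 0.39 ± 0.14 and 0.51 ± 0.15. In all 4 the groups did not overlap and the unadjusted p was under 0.05, but none passed the threshold (limma, adjusted p = 0.077 for FMA). Over all genes, 9.97% had an unadjusted p under 0.05. The groups did not overlap for 7.86% with tori 35-7 higher and for 11.4% with tori 35-7 lower. The part of these differences in the values of the 8 genes on control medium was not tested. The sum of the 2 root markers, the root hair expansins EXPA7 and EXPA18, was 7.23 to 7.73 and 7.16 to 7.40 in tori 35-7, and 7.54 to 7.87 and 7.30 to 7.66 in Col-0. EXPA7 averaged at least 4.25 in every group and EXPA18 at least 2.99. For EXPA7 the tori 35-7 arrays were all below the Col-0 arrays on control medium (11.4% of all genes) and under water deficit (8.05%). The genotypes overlapped for EXPA18 on both media, and neither root marker passed the threshold in any comparison.

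The first pattern, shared by 4 of the 8 genes, was a level highest in tori 35-7 on control medium, with its 3 arrays above the other 9. The same held for 0.828% of all genes. AT3G10040 had log2 levels of 3.31, 3.10 and 3.53 in tori 35-7 under water deficit and 4.59, 5.53 and 5.56 in tori 35-7 on control medium. In Col-0 it had 2.90, 2.96 and 2.96 under water deficit and 2.2, 2.57 and 2.70 on control medium. The 3 tori 35-7 control arrays were above the other 9, and no 2 of the 4 groups overlapped. On control medium AT3G10040 was higher by 2.74 ± 0.22 in tori 35-7 than in Col-0 (SE), which is 6.66-fold and ranks 1st among the 16548 genes. On that medium its mean level was at percentile 78.6 of all genes in tori 35-7 and at percentile 39.1 in Col-0. Under water deficit AT3G10040 was 1.91 ± 0.22 lower in tori 35-7 than on control medium, and the interaction was -2.36 ± 0.32.

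**Figure D1:**
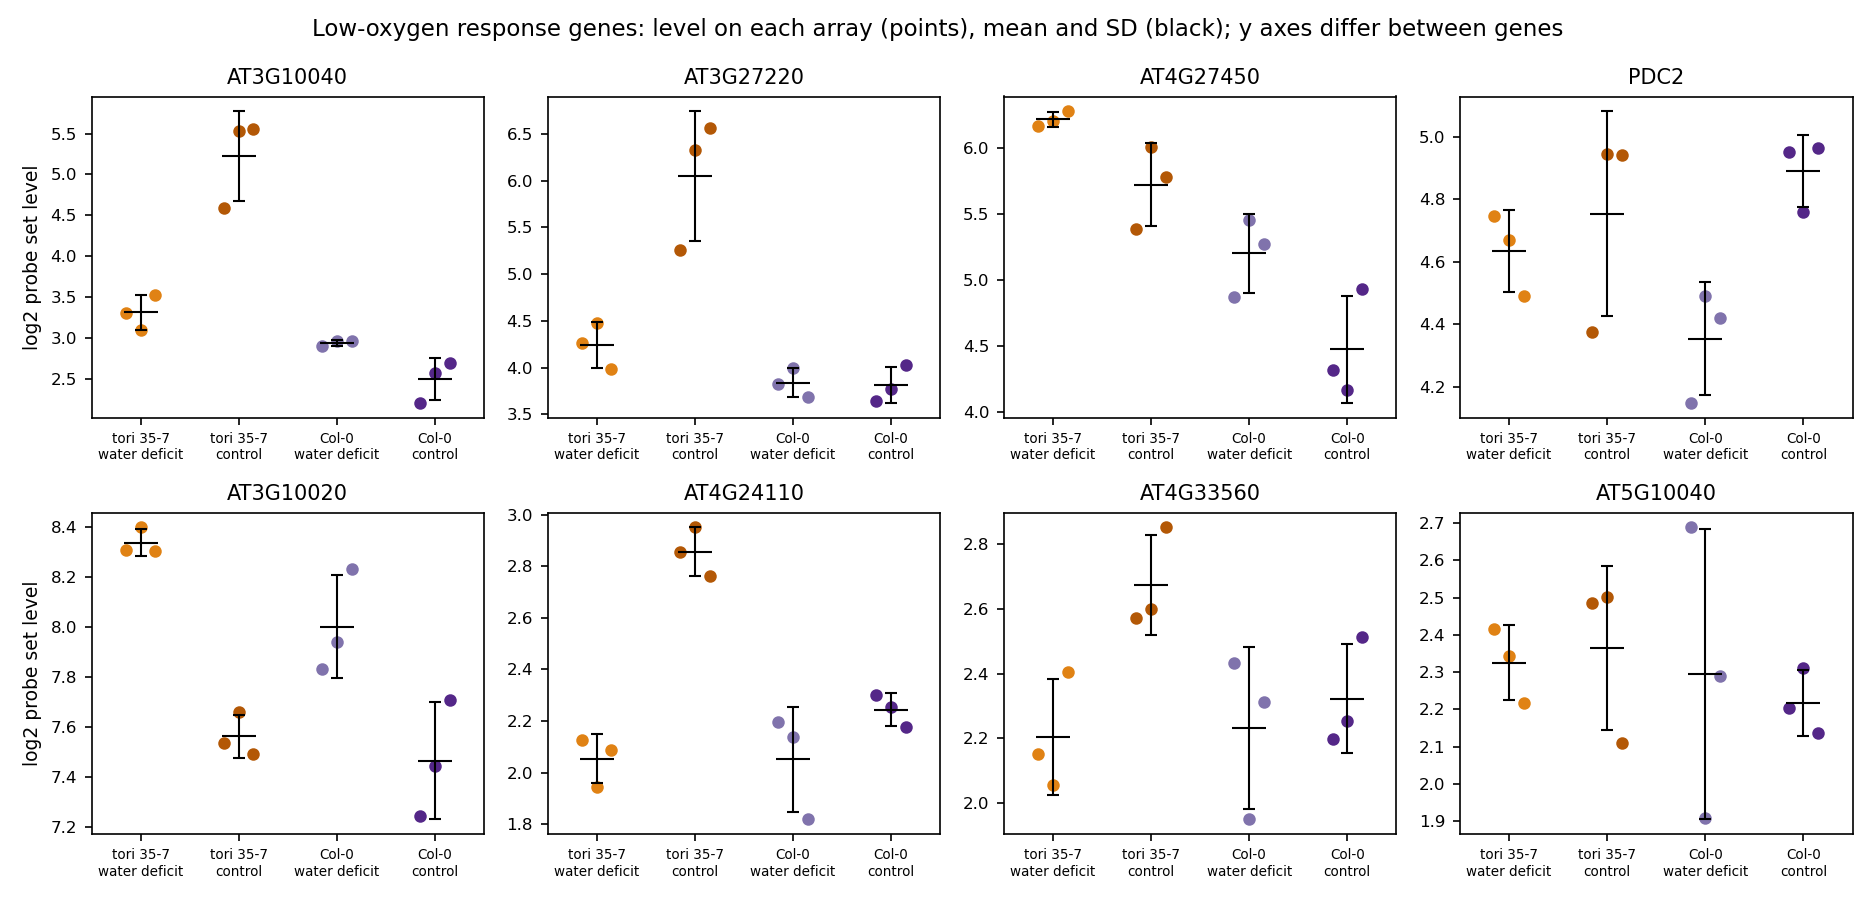
Log2 probe set level of the 8 low-oxygen genes on each of the 12 arrays (points), with the mean and SD of the 3 arrays of each group in black; the y axes differ between genes. AT3G10040, AT3G27220, AT4G24110 and AT4G33560 lie highest on the 3 tori 35-7 control arrays, AT4G27450 is higher in tori 35-7 on both media, and AT3G10020 is higher under water deficit in both genotypes.

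AT3G27220 had the same order at a higher level. It measured 4.27, 4.47 and 3.99 in tori 35-7 under water deficit and 5.26, 6.33 and 6.56 in tori 35-7 on control medium. The Col-0 arrays gave 3.83, 4.0 and 3.69 under water deficit and 3.65, 3.77 and 4.03 on control medium. The 3 tori 35-7 control arrays were again above the other 9, while each of the 3 remaining groups overlapped its neighbour in the order. AT3G27220 was 2.23 ± 0.26 higher in tori 35-7 than in Col-0 on control medium, or 4.70-fold, the 3rd largest such difference among all genes. Under water deficit it was 1.81 ± 0.26 lower in tori 35-7 than on control medium, and its interaction was -1.83 ± 0.37.

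The lowest of the 3 tori 35-7 control arrays was replicate 1, the one of narrower spread, for 5 of the 8 genes (AT3G10040, AT3G27220, AT4G27450, AT4G33560 and PDC2). Replicate 2 was the highest for 5 of the 8. Without replicate 1 the difference of AT3G10040 between the genotypes was 3.05 and that of AT3G27220 was 2.63. Without tori 35-7 control replicate 3 these differences were 2.57 and 1.98. The SD of the 3 tori 35-7 control arrays was 0.55 for AT3G10040 and 0.69 for AT3G27220, against a median SD of 0.163 over all genes in that group.

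**Figure D2:**
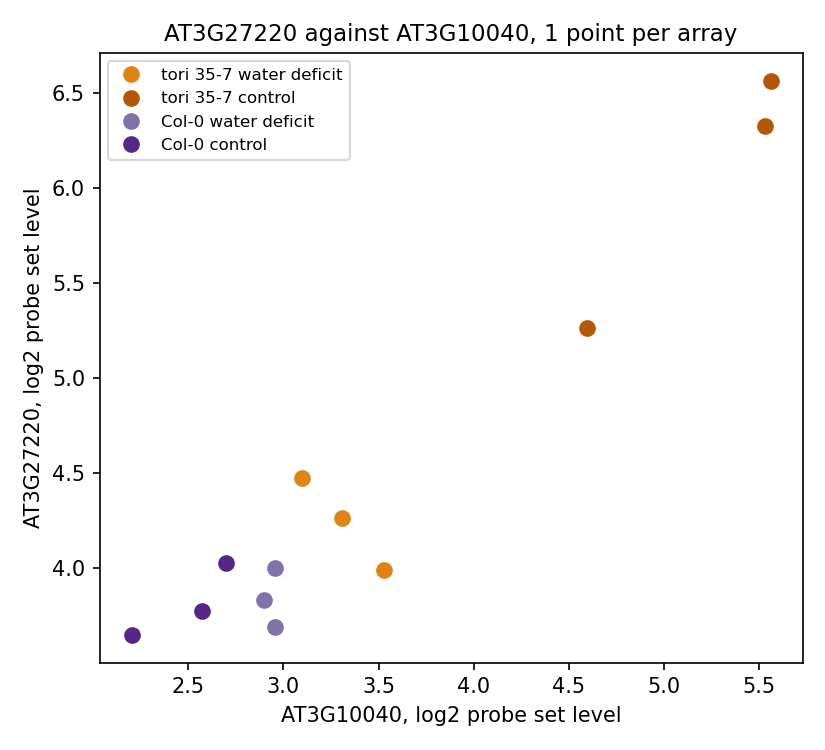
Log2 level of AT3G27220 (y axis) against that of AT3G10040 (x axis), 1 point per array, coloured by group. The 3 tori 35-7 control arrays lie at the upper right, apart from the other 9, and the lowest of them is replicate 1 (4.59 and 5.26).

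AT4G24110 and AT4G33560 had the same pattern at low levels and with smaller steps. AT4G24110 measured 2.13, 1.95 and 2.09 in tori 35-7 under water deficit and 2.85, 2.95 and 2.76 in tori 35-7 on control medium. In Col-0 the values were 2.2, 2.14 and 1.82 under water deficit and 2.3, 2.26 and 2.18 on control medium. On control medium it was 0.61 ± 0.13 higher in tori 35-7 than in Col-0, and under water deficit it was 0.80 ± 0.13 lower in tori 35-7 than on control medium. Under water deficit the 2 genotypes were at the same mean level of 2.05, among the lowest genes of the array. The difference of 0.00 had a 95% interval from -0.28 to 0.28 (limma, adjusted p = 0.997).

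AT4G33560 measured 2.15, 2.06 and 2.40 in tori 35-7 under water deficit and 2.57, 2.60 and 2.85 in tori 35-7 on control medium. In Col-0 it measured 2.43, 1.95 and 2.31 under water deficit and 2.2, 2.25 and 2.51 on control medium. The 3 tori 35-7 control arrays were above the other 9, but the gap was small: 2.57 was the lowest of them and 2.51 the highest of the Col-0 control arrays. The difference between the genotypes on control medium was 0.35 ± 0.16, and that between the media in tori 35-7 was -0.47 ± 0.16. For comparison, the 3 tori 35-7 control arrays were above the other 9 for 137 of all genes (0.828%), and below them for 159 (0.961%).

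AT4G27450 had another pattern, with higher levels in tori 35-7 on both media. It measured 6.16, 6.20 and 6.28 in tori 35-7 under water deficit and 5.38, 6.0 and 5.77 in tori 35-7 on control medium. In Col-0 the levels were 4.87, 5.45 and 5.27 under water deficit and 4.32, 4.17 and 4.93 on control medium. The order of the groups was thus tori 35-7 under water deficit, tori 35-7 control, Col-0 under water deficit and Col-0 control. The tori 35-7 control and Col-0 water-deficit arrays overlapped, as did the Col-0 groups. On control medium AT4G27450 was 1.25 ± 0.21 higher in tori 35-7 than in Col-0, or 2.38-fold.

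Between the genotypes under water deficit, AT4G27450 was higher in tori 35-7 by 1.02 ± 0.21, or 2.02-fold, with all 3 tori 35-7 arrays above all 3 Col-0 arrays (limma, adjusted p = 0.0384). It was the only one of the 8 genes past the threshold in this comparison, where 82 of all genes were higher in tori 35-7 (0.496%) and 54 were lower (0.326%), 0.822% in all. The tori 35-7 arrays were above the Col-0 arrays for 3 of the 8 (AT3G10040, AT4G27450 and AT3G10020), against 8.61% of all genes, and below them for none, against 8.05%. The call was lost without any 1 of 8 arrays. The adjusted p was 0.0601 and 0.0506 without Col-0 control replicates 1 and 2, 0.0662 and 0.0512 without Col-0 water deficit replicates 1 and 3, and 0.0607 without tori 35-7 control replicate 3. It was 0.108, 0.134 and 0.163 without tori 35-7 water deficit replicates 1, 2 and 3, while the difference itself stayed between 0.85 and 1.14 over the 12 arrays left out in turn.

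Of 11 listed family relatives of the 8 genes 9 were measured, and AILP1 and AT3G15450 were the 2 that passed in any comparison. AT3G15450, a relative of AT4G27450, also known to be repressed by sugar, had the same order of group means, with 8.46 ± 0.11 in tori 35-7 under water deficit and 7.80 ± 0.11 in tori 35-7 on control medium. In Col-0 its means were 7.60 ± 0.07 under water deficit and 7.15 ± 0.37 on control medium (SD, n = 3). Under water deficit AT3G15450 was higher in tori 35-7 by 0.86 ± 0.16 (limma, adjusted p = 0.0254), and on control medium the difference was 0.64 ± 0.16 (adjusted p = 0.116). The first call was lost without tori 35-7 water deficit replicate 1, 2 or 3 (adjusted p = 0.0855, 0.0944 and 0.148), with the adjustment over all probe sets (0.0705) and with the arrays compared alone (0.0986).

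AILP1, another aluminium-induced protein of the family, rose under water deficit in both genotypes. Its means were 8.87 ± 0.06 and 7.69 ± 0.12 in tori 35-7 under water deficit and on control medium, and 8.43 ± 0.12 and 7.27 ± 0.22 in Col-0. The rise was 1.18 ± 0.14 in tori 35-7 (limma, adjusted p = 5.73e-04) and 1.16 ± 0.14 in Col-0 (adjusted p = 5.81e-04), and the interaction was 0.02 with a 95% interval from -0.39 to 0.44. AT3G22850 and AT5G43830 passed the threshold in none of the 5 comparisons by limma (unadjusted p under 0.05 in 1 comparison, that of AT3G22850 for water deficit in Col-0, at 0.0311). Their differences lay between -0.38 and 0.22. As relatives may share stretches of sequence, their probe sets are not certain to be free of cross-hybridisation.

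**Figure D3:**
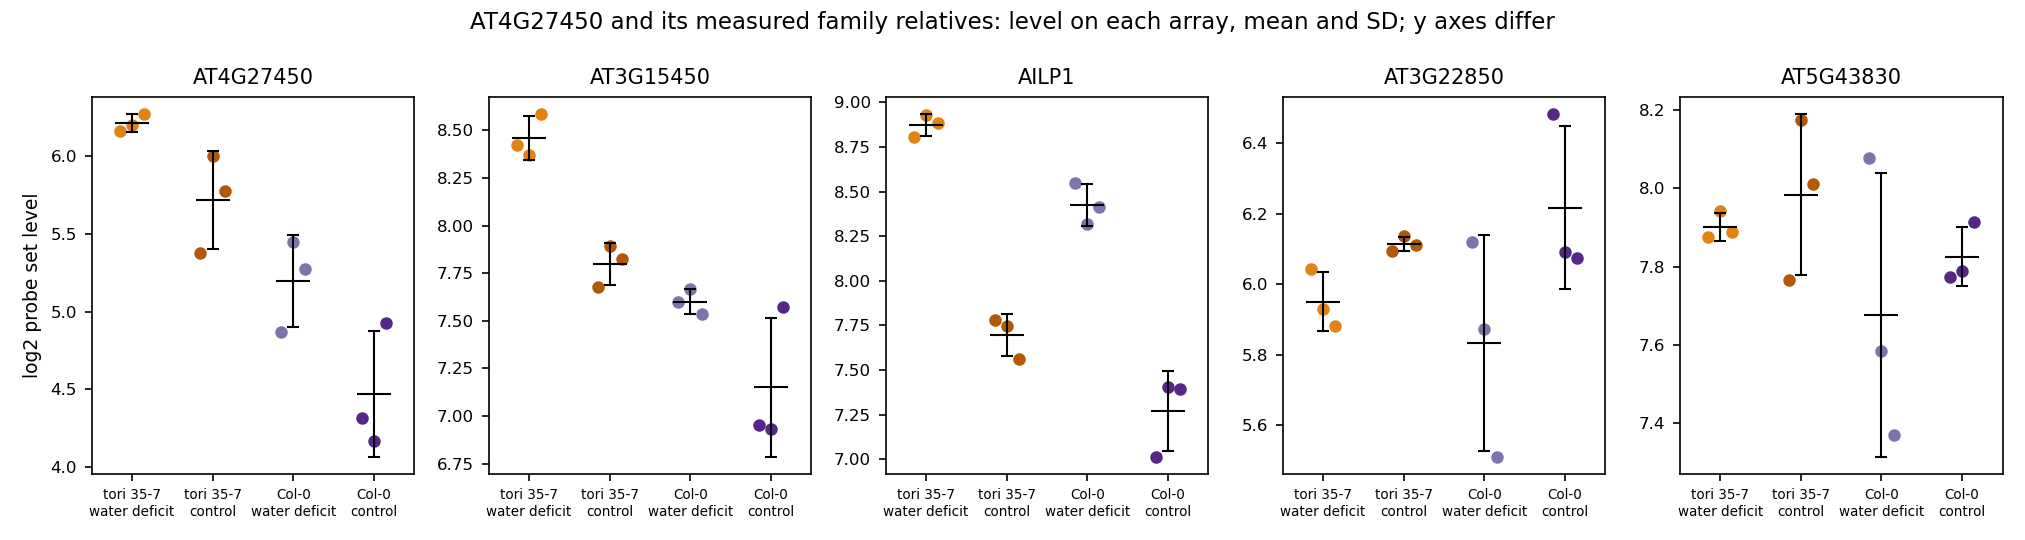
Log2 probe set level of AT4G27450 and its 4 measured relatives on each array (points), with the mean and SD of each group of 3 arrays in black; y axes differ between genes. AT4G27450 and AT3G15450 have the same order of group means from left to right, AILP1 is higher under water deficit in both genotypes, and the groups of AT5G43830 overlap.

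AT3G10020, whose probe set had the highest level of the 8, was higher under water deficit in both genotypes. It measured 8.31, 8.40 and 8.30 in tori 35-7 under water deficit and 7.54, 7.66 and 7.49 in tori 35-7 on control medium. Levels in Col-0 were 7.83, 7.94 and 8.23 under water deficit and 7.24, 7.44 and 7.71 on control medium. In neither genotype did the media overlap, and on control medium the genotypes did overlap. The difference between media was 0.78 ± 0.15 in tori 35-7. In Col-0 it was 0.54 ± 0.15, which did not pass the threshold with all arrays (limma, adjusted p = 0.0937).

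In Col-0 none of the 8 genes passed the threshold of limma for water deficit, against 203 of all genes (1.23%), 111 of them higher (0.671%) and 92 lower (0.556%). At an unadjusted p under 0.05 there were 3 of the 8, AT4G27450, PDC2 and AT3G10020, against 12.9% of all genes. The water-deficit arrays were all above the control arrays for AT3G10040 and AT3G10020 (7.26% of all genes) and all below them for PDC2 (8.45%). Without Col-0 water deficit replicate 1, the array that stood apart, 2 of the 8 were called higher. These were AT3G10020, by 0.62 (limma, adjusted p = 0.0498), and AT4G27450, by 0.89 (adjusted p = 0.0468). The calls over all 16548 genes also grew in that fit, to 331, with 244 higher and 87 lower. With all arrays the difference of AT4G27450 was 0.73 ± 0.21 (adjusted p = 0.121). Of the 4 shoot markers 2 passed as higher under water deficit in tori 35-7 (0.822% of all genes) and 1 in Col-0 (0.671%). LHCB4.2, an antenna protein of photosystem II, rose by 1.08 ± 0.15 in tori 35-7 and by 0.71 ± 0.15 in Col-0 (limma, adjusted p = 0.0027 and 0.0372). FMA rose by 0.85 ± 0.18 in tori 35-7 (adjusted p = 0.0353) and differed by 0.47 ± 0.18 in Col-0 (adjusted p = 0.269). LHCB4.1 differed by 0.52 and 0.48 without passing. RCA had negative differences without overlap, -0.24 ± 0.12 in tori 35-7 and -0.32 ± 0.12 in Col-0 (adjusted p = 0.565 and 0.248). Between the genotypes under water deficit LHCB4.2 was 0.88 ± 0.15 higher in tori 35-7 (adjusted p = 0.0198). The part of these markers in the values of AT3G10020 and AT4G27450 was not tested.

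For AT3G10040 the difference between media in Col-0 was 0.45, with a 95% interval from -0.03 to 0.92 (limma, adjusted p = 0.43), and the groups did not overlap. The interval rests on a spread shared by the 4 groups. The SD of AT3G10040 was 0.04 and 0.26 in Col-0 under water deficit and on control medium, and 0.21 and 0.55 in tori 35-7. For AT3G27220 the difference between media in Col-0 was 0.02, with an interval from -0.53 to 0.58 (adjusted p = 0.987). AT4G24110, AT4G33560 and AT5G10040 differed between the media in Col-0 by -0.19, -0.09 and 0.08, with adjusted p of 0.598, 0.872 and 0.907. Under water deficit AT3G10040 differed between the genotypes by 0.38 (interval -0.10 to 0.85, adjusted p = 0.526) and AT3G27220 by 0.40 (interval -0.15 to 0.96, adjusted p = 0.564), so neither passed. AT3G10020 differed there by 0.34 ± 0.15 (adjusted p = 0.35) and PDC2 by 0.28 ± 0.16, with an interval from -0.07 to 0.63 (adjusted p = 0.518). The difference of AT4G33560 was -0.03 ± 0.16 (adjusted p = 0.963). For AT3G10040 the 3 tori 35-7 arrays were nevertheless all above the 3 Col-0 arrays.

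**Figure D4:**
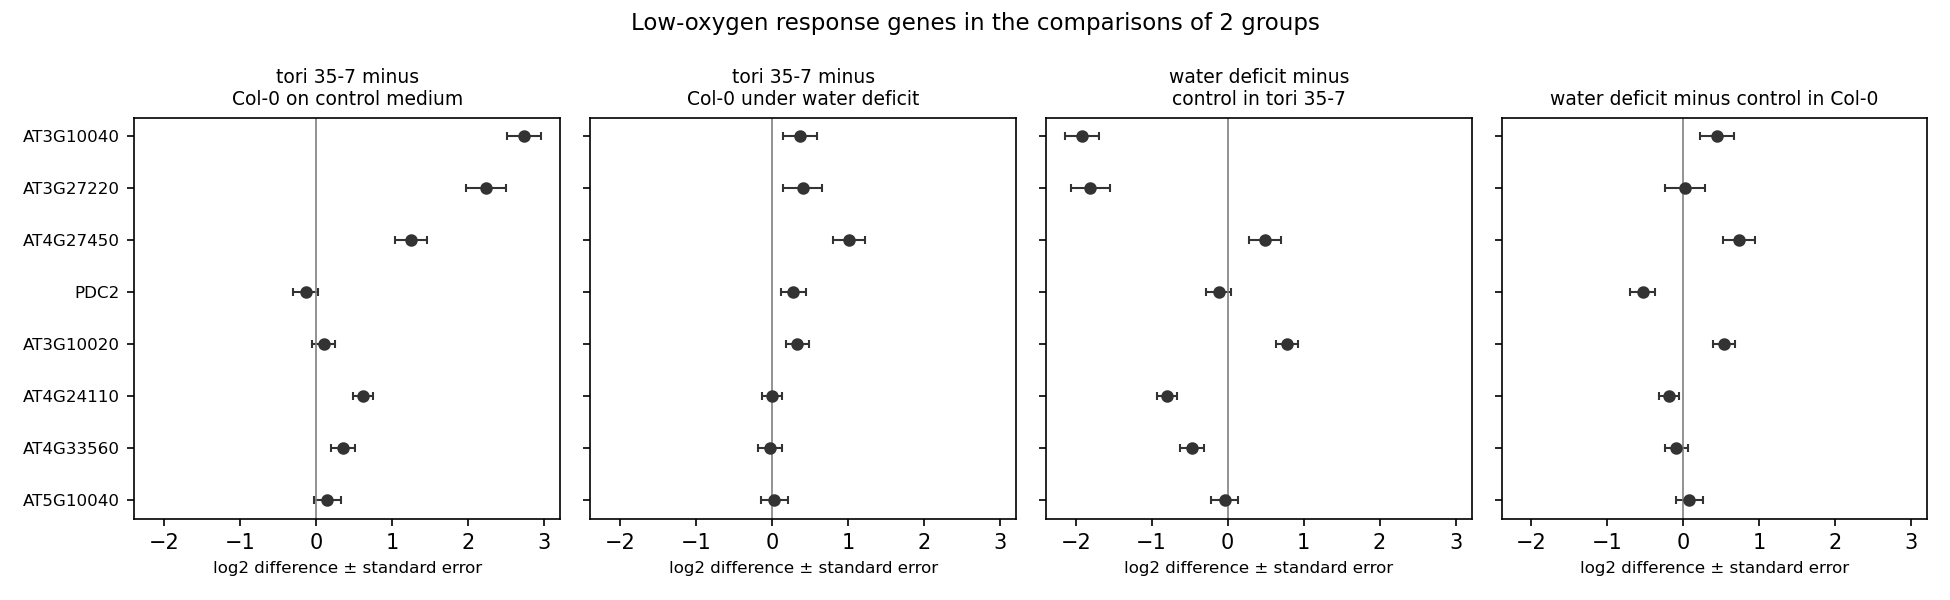
Log2 differences (points) with the standard error of the fit to 12 arrays (bars) for the 8 low-oxygen genes in 4 comparisons of 2 groups; the grey line marks 0. On control medium AT3G10040 and AT3G27220 are 2.74 and 2.23 higher in tori 35-7, while under water deficit their differences are 0.38 and 0.40.

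PDC2, the fermentation gene of the set, did not share the pattern of AT3G10040. It measured 4.75, 4.67 and 4.49 in tori 35-7 under water deficit and 4.37, 4.95 and 4.94 in tori 35-7 on control medium. In Col-0 it measured 4.15, 4.49 and 4.42 under water deficit and 4.95, 4.76 and 4.96 on control medium. The genotypes overlapped on both media, and on control medium their difference was -0.14 ± 0.16. In Col-0 the 3 water-deficit arrays were all below the 3 control arrays, and the difference was -0.54 ± 0.16 (limma, adjusted p = 0.144). Without Col-0 water deficit replicate 1, its lowest array, the difference was -0.43.

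AT5G10040 stayed at a low level throughout. Its arrays ran from 2.22 to 2.41 in tori 35-7 under water deficit and from 2.11 to 2.50 on control medium, and from 1.91 to 2.69 and from 2.14 to 2.31 in Col-0. All 4 groups overlapped their neighbours, and its mean lay between the 26.2nd and the 31.6th percentile of all genes in every group. The 95% interval of its difference was -0.35 to 0.41 between the genotypes under water deficit and -0.30 to 0.46 between the media in Col-0.

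Counted together, the 8 genes did not move as 1 block. On control medium 3 of 8 were past the threshold as higher in tori 35-7, namely AT3G10040, AT3G27220 and AT4G27450, and none as lower, where 45 of all genes were higher (0.272%) and 49 lower (0.296%), 0.568% in all. AT4G27450 left that count without Col-0 control replicate 1 or 2 and without tori 35-7 control replicate 2 or 3, at differences between 1.1 and 1.22, and also with the adjustment run over all probe sets. AT4G24110 joined it with array weights, with centring, with the arrays compared alone and without the 2 arrays of narrowest spread. It also joined without Col-0 water deficit replicate 1, 2 or 3, arrays that are not part of this comparison but enter the shared spread. The groups of 5 of the 8 did not overlap, with tori 35-7 higher, against 7.86% of all genes, and those of none with tori 35-7 lower, against 11.4%. In tori 35-7, 3 of the 8 were lower under water deficit (AT3G10040, AT3G27220 and AT4G24110) and AT3G10020 was higher, where 56 of all genes were lower (0.338%) and 136 higher (0.822%), 1.16% in all. The water-deficit arrays were all below the control arrays for 4 of the 8 (7.77% of all genes) and all above them for 2 (11.1%). Without tori 35-7 water deficit replicate 2 the call of AT4G24110 was lost, at a difference of -0.75. That of AT3G10020 was lost without any 1 of 5 tori 35-7 arrays, all but control replicate 2, at differences between 0.74 and 0.79. Nothing is read from these counts, because the same comparisons chose the genes. The interaction counted AT3G10040 alone, the single gene of all 16548 past the threshold (0.00604%), and it was called in 1 of the 12 fits without 1 array, that without tori 35-7 control replicate 1.

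The median difference of the 8 genes was 0.48 between the genotypes on control medium and 0.31 under water deficit, against -0.01 for all genes in both. Between the media it was -0.29 in tori 35-7 and 0.05 in Col-0, against 0.01 for all genes in both. Over the 12 arrays the correlation of pairs of the 8 genes ran from -0.64 to 0.96 with a median of 0.19 across the 28 pairs. The highest was that of AT3G10040 with AT3G27220 and the lowest that of AT3G10020 with AT4G24110. For deviations from the group means, the correlation of pairs ran from -0.65 to 0.81 with a median of 0.14. These are descriptions, since the points share 4 groups and the same arrays.

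AT3G10020 and AT3G10040 lie close together on chromosome 3, with 1 protein-coding gene, AT3G10030, between them in the RefSeq annotation (TAIR10.1). The neighbours flanking AT3G10030 thus had different patterns, and AT3G10030 itself differed by 0.02 ± 0.16 between the genotypes on control medium, with means of 5.15 and 5.13. Of the other measured neighbours of the 8 genes, none was past the threshold on control medium (limma; 1 had an unadjusted p under 0.05). That gene was AT5G10050, next to AT5G10040, with 3.41 in tori 35-7 and 4.34 in Col-0 (difference -0.93 ± 0.20, adjusted p = 0.050). It was singled out after its value was seen.

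By Pearson correlation over the 12 arrays, the gene most like AT3G10040 was AT3G27220 (r = 0.965), out of 16547 genes. Both genes were selected on the same comparisons of these arrays, so this rank is a description and not a separate result. AT4G24110 ranked 28th (0.807), AT4G33560 ranked 89th (0.722) and AT4G27450 ranked 547th (0.541). PDC2, AT5G10040 and AT3G10020 ranked 4073rd, 4600th and 10642nd. Outside the set the 5 most alike were AT2G41090 (0.906), AT2G20142 (0.894), AT2G07777 (0.880), CML41 (0.877), which encodes a calmodulin-like protein, and EXO (0.866), known as a brassinosteroid-induced gene. EXO averaged 4.21 in tori 35-7 under water deficit and 5.57 on control medium, and 4.21 and 4.31 in Col-0. The genes most like the median of the 8 were AT4G31000 (0.922), AT4G18250 (0.911), AT5G24210 (0.904), AT4G00295 (0.897) and AT2G20142 (0.892).

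Of 65 further genes of low-oxygen sensing and response, 22 had a probe set of their own. The list was written with results of these arrays known, and the 10 genes named above are not in it. ADH1, PDC1, the group VII factors and the plant cysteine oxidases were not analysed here. Of 20 genes of oxygen sensing only MAP1A had a probe set named for it alone. MAP1A, a methionine aminopeptidase of the kind that exposes the regulatory cysteine, did not pass in any of the 5 comparisons. Between the genotypes on control medium none of the 22 passed by limma. At an unadjusted p under 0.05 there were 3, CML38, AT5G42200 (0.44 ± 0.15) and AT3G23170, against 9.97% of all genes. AT5G47060 came next, with 0.34 ± 0.18 (adjusted p = 0.563). In the interaction none of the 22 passed either, and 3 had an unadjusted p under 0.05, against 6.08% of all genes. On control medium the median difference of the 22 was 0.12, with 15 above 0 and 7 below. Over all genes it was -0.01, with 8023 above 0 and 8525 below. In 6 of the 22 all tori 35-7 control arrays were above all Col-0 control arrays (27.3%, against 7.86% of all genes), and in none were they below.

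CML38, a calmodulin-like protein found in the stress granules of low-oxygen cells, had the largest of these differences. It measured 2.59, 2.69 and 2.3 in tori 35-7 under water deficit and 2.36, 3.27 and 2.86 on control medium. The Col-0 arrays gave 2.15, 2.01 and 1.90 under water deficit and 2.03, 1.90 and 2.40 on control medium. The control groups overlapped by tori 35-7 replicate 1 and Col-0 replicate 3, and the difference was 0.72 ± 0.21 (adjusted p = 0.168). CML38 passed with array weights (0.87, adjusted p = 0.0107) and without the 2 arrays of narrowest spread (0.95, adjusted p = 0.0224).

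AT3G23170, a little-known gene of the low-oxygen response, was, with AlaAT1, one of the 2 genes among the 22 whose 3 tori 35-7 control arrays were above the other 9, as for 0.828% of all genes. It measured 3.43, 2.96 and 3.33 in tori 35-7 under water deficit and 4.21, 4.29 and 4.2 on control medium. In Col-0 the values were 3.40, 3.59 and 2.67 under water deficit and 3.61, 3.88 and 3.56 on control medium. It fell under water deficit in tori 35-7 by 0.99 ± 0.20 (limma, adjusted p = 0.0309), the only 1 of the 22 to pass in that comparison. At an unadjusted p under 0.05 there were 2 of the 22, against 9.55% of all genes. The call was lost without Col-0 control replicate 1 (adjusted p = 0.0509). It was also lost without tori 35-7 control replicates 1, 2 and 3 (0.0853, 0.116 and 0.107) and without tori 35-7 water deficit replicates 1, 2 and 3 (0.0622, 0.166 and 0.104). Its difference between media in Col-0 was -0.47 and the interaction did not pass.

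**Figure D5:**
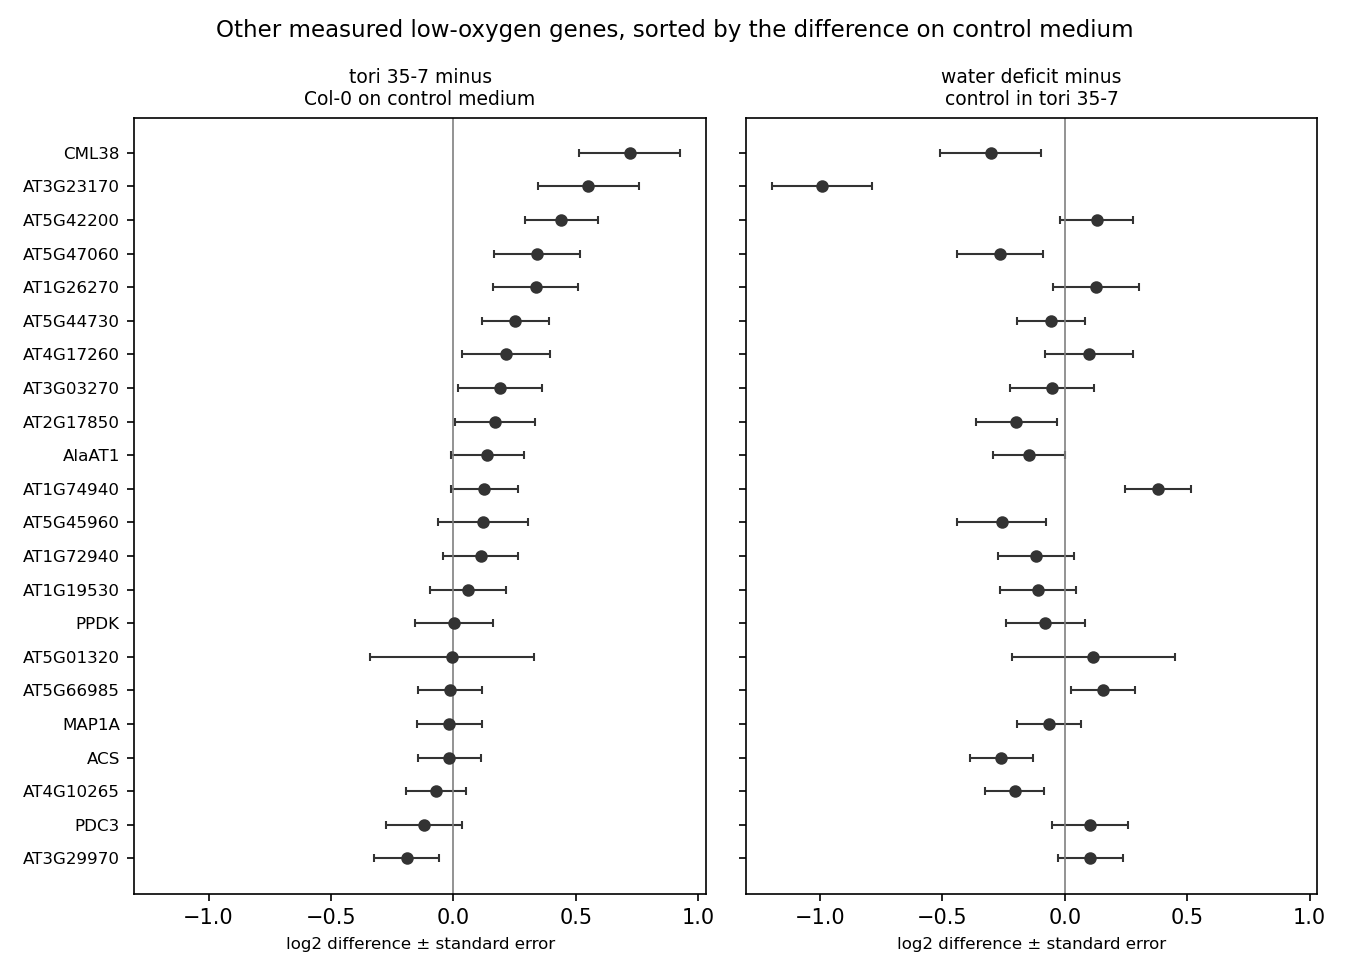
Log2 differences (points) with standard errors (bars) of the 22 other low-oxygen genes measured, sorted by the difference between tori 35-7 and Col-0 on control medium (left) and with water deficit minus control in tori 35-7 (right). CML38 and AT3G23170 have the largest differences on the left, 0.72 and 0.55, and AT3G23170 the largest fall on the right, -0.99.

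The 6 measured genes of fermentation and anaerobic carbon use other than PDC2 had a median difference of 0.00 between the genotypes on control medium, with a range from -0.12 to 0.22, and none passed by limma (none had an unadjusted p under 0.05). Among them AT4G17260, the lactate dehydrogenase gene, differed by 0.22 ± 0.18, and PDC3 by -0.12 ± 0.16. PDC3 and AT5G01320, relatives of PDC2, averaged at most 2.26 in any group. ACS, an acetyl-CoA synthetase that recovers acetate, was 0.55 ± 0.13 lower under water deficit in Col-0 without passing (adjusted p = 0.055).

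AlaAT1, an alanine aminotransferase that stores pyruvate as alanine when oxygen is low, was the 1 gene of the 6 to pass in any comparison. It measured 7.04, 7.04 and 7.10 in tori 35-7 under water deficit and 7.14, 7.32 and 7.16 on control medium. In Col-0 it measured 6.02, 6.47 and 6.64 under water deficit and 7.13, 7.04 and 7.03 on control medium. The low group was Col-0 under water deficit, and its lowest array was replicate 1. AlaAT1 fell under water deficit in Col-0 by 0.69 ± 0.15 (limma, adjusted p = 0.0372), and under water deficit it was higher in tori 35-7 than in Col-0 by 0.68 ± 0.15 (adjusted p = 0.0474).

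Without Col-0 water deficit replicate 1 the fall of AlaAT1 was 0.51 (adjusted p = 0.0452) and its difference between the genotypes 0.51 (adjusted p = 0.0574). The fall was not called without Col-0 control replicates 1, 2 and 3 (adjusted p = 0.174, 0.114 and 0.113), tori 35-7 control replicates 2 and 3 (0.0525 and 0.0569) or tori 35-7 water deficit replicates 1, 2 and 3 (0.063, 0.0626 and 0.0624). The difference between the genotypes was called without 1 array only when that array was Col-0 water deficit replicate 3 (0.0254), and the adjusted p was 0.0507 to 0.185 without any 1 of the other 11. Among the 22 genes AlaAT1 was the single call in each of these 2 comparisons, against 1.23% and 0.822% of all genes. At an unadjusted p under 0.05 by limma there were 6 of the 22 in each, against 12.9% and 12.8%. Between the media in Col-0 the groups did not overlap for 4 as higher and 4 as lower (7.26% and 8.45% of all genes). Between the genotypes under water deficit this held for 5 as higher in tori 35-7 and 1 as lower (8.61% and 8.05%).

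Of the wound-responsive relatives of AT4G33560, AT4G10265, AT4G05070 and AT2G14070 were measured, and none passed in any of the 5 comparisons by limma. Between the genotypes on control medium their differences lay between -0.07 and 0.09. AT4G05070 was nearest to the threshold, with a difference of 0.74 ± 0.17 between the media in Col-0 (adjusted p = 0.0509), where the groups did not overlap. Of 9 listed genes of the mitochondrial stress response, 5 were measured and none passed by limma in any comparison. Between the media, 2 had an unadjusted p under 0.05 in tori 35-7 (9.55% of all genes) and 1 in Col-0 (12.9%). All 5 had differences above 0 between the genotypes on control medium, as had 8023 of all 16548 genes. They lay between 0.12 and 0.46, with AT2G21640 at 0.46 ± 0.25 (adjusted p = 0.602). AT5G51440 differed by 0.27 ± 0.15, NDB4, an NADH dehydrogenase, by 0.33 ± 0.18 and AT5G64400 by 0.13 ± 0.14. Their median was 0.27, against -0.01 over all genes. Of 11 genes of sugar starvation only AT3G15450, described above, had a probe set named for it alone.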

How the data were processed

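Biotin-labelled RNA of whole seedlings, made from 100 ng of total RNA, was hybridised to 12 Affymetrix Arabidopsis arrays, per the labels' protocols. The authors deposited a table with 1 value for each of 38408 probe sets on each array, between 1.13 and 13.2. The submitters' processing notes name Transcriptome Analysis Console 4.0.1. The deposited values were taken as log2 levels from their range. How background, normalization and summarization were handled is not given in the sources used here. Without detection calls, low levels cannot be told from background. All 12 columns belonged to labelled samples.

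The probe annotation named a single gene for 16722 probe sets and several for 759, which were not used, as were 20927 without a name here. The brightest probe set stood for a gene. Of the 16548 genes, 16411 were matched to the RefSeq table of TAIR10.1. Group means were fitted to the 12 arrays together by limma 3.58.1 (lmFit, eBayes; R 4.3.3) without covariates. Adjusted p-values are two-sided, by Benjamini-Hochberg over the 16548 genes, with a threshold of 0.05. Separate cultures are not stated for the replicates, so the p-values cover the spread between these samples alone, which could be technical. No pair of arrays was identical. Precision is limited by having 3 arrays per group. The steps were tested on simulated data.

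The members and gene lists were chosen with earlier results of these data known. The text names all members, the list genes past the threshold, up to 4 genes of each list with the lowest unadjusted p on control medium, and the 5 genes most correlated with AT3G10040 and with the members' median. The lists hold oxygen sensing, fermentation, other low-oxygen genes, family relatives, mitochondrial stress, sugar starvation, and root and shoot markers. Sequences of promoters and proteins were not used here. The alternatives of the closing section change 1 choice at a time.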

Additional observations from a re-analysis of the deposited data

Results flagged for a closer look

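AT3G10040 had an interaction of -2.36 ± 0.32 (SE), the difference between the media being -1.91 in tori 35-7 and 0.45 in Col-0. The difference in Col-0 did not pass the threshold. All 3 tori 35-7 water-deficit arrays were below the 3 tori 35-7 control arrays, as for 7.77% of all genes. All 3 Col-0 water-deficit arrays were above the 3 Col-0 control arrays, as for 7.26% of all genes. The gene was chosen partly for its interaction, which is therefore a description. The value lay between -2.68 without tori 35-7 control replicate 1 and -2.19 without tori 35-7 control replicate 3. It was past the threshold in 1 of the 12 fits without 1 array, that without tori 35-7 control replicate 1. With centring on the median or with the adjustment over all probe sets it was not past the threshold.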

How the results depend on the processing

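Of the 8 genes, 3 were called between the genotypes on control medium, 4 between the media in tori 35-7, 1 in the interaction, 0 between the media in Col-0 and 1 between the genotypes under water deficit. For the other 22 low-oxygen genes these counts were 0, 1, 0, 1 and 1. Over all genes the shares called were 0.568%, 1.16%, 0.00604%, 1.23% and 0.822%. Counts of the 8 in the first 3 comparisons are descriptions in every setting below, because those comparisons chose the genes. Array weights and leaving out the 2 arrays of narrowest spread each gave 1 of the 22 on control medium (CML38), 2 of the 8 in the interaction, and 2 of the 8 (AT4G27450 and AT3G10020) and 2 of the 22 (AlaAT1 and ACS) in Col-0. On control medium 4 of the 8 were called in both settings, as with centring and with the arrays compared alone (AT4G24110 added), and array weights gave 5 of the 8 in tori 35-7 (AT4G33560 added). The calls over all genes moved too. Array weights gave 421 on control medium against 94, 668 in tori 35-7 against 192, 311 in Col-0 against 203 and 2 in the interaction. Without the 2 narrowest arrays there were 153 on control medium, 461 in Col-0 and 2 in the interaction. On control medium centring gave 93 and the arrays compared alone 129. Quantile normalization gave 2 of the 8 in Col-0 (319 of all genes), and trend with robust priors 2 of the 22 (199 of all genes). Centring on the median gave 0 of the 8 in the interaction. Adjustment over all probe sets gave 2 of the 8 on control medium (without AT4G27450), 0 of the 8 in the interaction and under water deficit, and 0 of the 22 in the last 4 comparisons. Of all 38408 probe sets it called 42, 213, 0, 329 and 113 in the 5 comparisons. The arrays compared alone gave 0 of the 8 and 0 of the 22 under water deficit (8 of all genes) and 0 of the 22 in Col-0 (39 of all genes). A minimum of 2-fold gave 2 of the 8 and 0 of the 22 in tori 35-7, and 0 of the 22 in Col-0 and under water deficit. Over all genes that minimum gave 63 in tori 35-7, 74 in Col-0 and 36 under water deficit. Array weights also gave 0 of the 22 under water deficit. Leaving out 1 array at a time gave 2 to 4 of the 8 on control medium, 2 to 4 in tori 35-7, 0 to 2 in the interaction, 0 to 2 in Col-0 and 0 to 1 under water deficit. For the 22 it gave 0 to 0, 0 to 1, 0 to 0, 0 to 3 and 0 to 2. Over all 16548 genes it gave 11 to 233, 70 to 387, 0 to 2, 72 to 331 and 21 to 241.

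Same-numbered samples deviated together (correlation over 0.1) in 3 of 18 pairs, the 3 of tori 35-7 control with Col-0 water deficit (0.403, 0.258 and 0.177), groups that meet only in the interaction. The other 15 pairs, those of the 2-group comparisons among them, lay between -0.0586 and 0.0661, so the numbers were not taken to pair the samples. With replicate number as a block, 0 of the 22 were called under water deficit (AlaAT1 with an adjusted p of 0.051 by limma), and the other 9 counts did not change.

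Signs turned for differences near 0 that passed no threshold. Over all alternatives, the difference on control medium ran from -0.233 to 0.0526 for PDC2 and from -0.0136 to 0.22 for AT3G10020, and for AT5G10040 the difference in tori 35-7 ran from -0.168 to 0.0275 and the interaction from -0.312 to 0.138. Between the media in Col-0, AT3G27220 had -0.0094 after centring, -0.0105 with array weights and -0.062 to 0.13 with 1 array left out. AT5G10040 had -0.0072 with array weights, -0.12 without the 2 narrowest arrays and -0.12 to 0.27 with 1 array left out, and AT4G33560 had -0.19 to 0.0502. Between the genotypes under water deficit, AT4G33560 had 0.0124 with quantile normalization, 0.0186 after centring, 0.0715 without the 2 narrowest arrays and -0.17 to 0.0715 with 1 array left out. The range was -0.11 to 0.0752 for AT4G24110 and -0.16 to 0.23 for AT5G10040. The causes were not tested. The number of all genes called on control medium was 94, and 421 with array weights and 37 with a minimum of 2-fold, so the shares over all genes move with the setting.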

Other observations

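The probe sets that AT4G10270 and AT1G33055 share with other genes give values that cannot be assigned to either gene. The first of 2 probe sets listed for AT4G10270 together with AT4G10280 averaged 2.47 ± 0.11 in tori 35-7 under water deficit and 3.43 ± 0.24 in tori 35-7 on control medium, and 2.3 ± 0.08 and 2.65 ± 0.22 in Col-0 (SD, n = 3). The second averaged 2.60 ± 0.06 and 2.65 ± 0.11 in tori 35-7, and 3.0 ± 0.13 and 2.64 ± 0.3 in Col-0. The probe set listed for AT1G33055 together with AT1G33050 averaged 5.47 ± 0.13 and 5.47 ± 0.54 in tori 35-7, and 4.74 ± 0.44 and 5.00 ± 0.11 in Col-0.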
